A study of Homo sapiens with 12 samples.

Results

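A set of 9 transcription factors that define cell lineages of the lung and its tumors were followed in RNA sequencing of lung cancer cells: SOX2, TP63, NKX2-1, FOXA1, FOXA2, GATA6, SOX9, KLF5 and NEUROD1. They were chosen by name, as the rows of a deposited read count table that carry these symbols, which makes 9 of the 22506 genes listed. Reads were present for 8 of the 9 in at least 1 library, and those 8 passed the filter on low counts. The libraries came from 4 human lung cancer cell lines that the labels name H1703, H1299, CHAGO and CALU, in a series titled for lung squamous cell carcinoma. Each line gave 3 libraries, 1 per state: tumor-initiating cells (TICs) with a knockdown of PRKCI, TICs without it, and parental cells, which the labels describe as adherent. The kinase that PRKCI encodes, protein kinase C iota, is an atypical isoform that acts in epithelial polarity complexes. How the knockdown was made and how the TICs were grown is not given in the sources used here. Each line is a single line, so the 4 lines are the replicates of a state. The 3 libraries of a line are its 3 states, not separate cultures of 1 condition. Tests among lines, and each SD with n = 3, thus rest on the spread between states within lines. All p-values below measure the spread between these libraries.

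SOX2 and TP63 lie on the long arm of chromosome 3, as PRKCI does, in a region that is often gained in squamous tumors of the lung. SOX2 is a high-mobility-group factor that keeps basal cells of the airway and pluripotent cells in a stem state, and TP63 encodes p63, the master factor of basal and squamous epithelium. NKX2-1 (TTF-1), FOXA1, FOXA2 and GATA6 pattern the foregut endoderm and drive alveolar and airway genes, and NKX2-1 is used in pathology to tell lung adenocarcinoma from squamous carcinoma. SOX9 marks the progenitors at the distal tips of the embryonic lung, KLF5 is a zinc-finger factor of proliferating epithelium, and NEUROD1 is a factor of neuroendocrine cells and of a class of small cell lung cancer.

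The promoters of SOX2, TP63 and NKX2-1 are shown because each of these genes had no or almost no reads in entire lines and clear expression in others. The 250 bases before the RefSeq start are given 5′ to 3′ (RefSeq, GRCh38.p14), at chr3:181711675-181711924 on the plus strand for SOX2, chr3:189631139-189631388 on the plus strand for TP63, and chr14:36520233-36520482 and chr14:36519557-36519806 on the minus strand for the upstream and the downstream start of NKX2-1. Capitals mark matches, on either strand, to any of 6 motifs: GGGCGG for the GC box, ACAAT for the core bound by SOX proteins, TGTTTAC for forkhead proteins, AGATAA for the GATA family, CACTTGA for NKX2-1 itself and TATAAA for the TATA box.
SOX2: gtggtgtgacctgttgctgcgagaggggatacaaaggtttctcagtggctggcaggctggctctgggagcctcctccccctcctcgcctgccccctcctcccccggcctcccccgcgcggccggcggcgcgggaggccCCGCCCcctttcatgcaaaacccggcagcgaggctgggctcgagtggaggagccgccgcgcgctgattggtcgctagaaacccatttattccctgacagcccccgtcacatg
TP63: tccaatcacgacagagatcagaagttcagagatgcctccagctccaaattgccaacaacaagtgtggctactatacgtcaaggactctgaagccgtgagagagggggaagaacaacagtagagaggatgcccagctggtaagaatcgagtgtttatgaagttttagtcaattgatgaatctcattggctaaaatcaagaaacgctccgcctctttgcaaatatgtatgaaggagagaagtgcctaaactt
NKX2-1 upstream start: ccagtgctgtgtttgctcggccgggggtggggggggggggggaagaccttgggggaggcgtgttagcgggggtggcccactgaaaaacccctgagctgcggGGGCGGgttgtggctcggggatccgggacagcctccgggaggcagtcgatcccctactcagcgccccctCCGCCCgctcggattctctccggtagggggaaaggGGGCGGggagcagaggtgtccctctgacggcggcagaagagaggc
NKX2-1 downstream start: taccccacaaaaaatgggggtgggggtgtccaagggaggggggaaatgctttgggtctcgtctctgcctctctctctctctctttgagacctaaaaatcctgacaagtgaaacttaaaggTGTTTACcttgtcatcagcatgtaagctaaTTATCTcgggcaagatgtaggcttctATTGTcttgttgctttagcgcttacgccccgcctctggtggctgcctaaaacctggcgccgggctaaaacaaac
The SOX2 window was GC-rich, at 68.8% G and C, and held 1 GC box. The TP63 window had 44.0% G and C and held none of the 6 motifs. It lies before 1 start, while TP63 has 5 annotated transcript starts (GENCODE v29), and which start gave the reads was not tested. Of the NKX2-1 windows, the upstream one held 3 GC boxes, and the downstream one held 1 forkhead site, 1 GATA site and 1 SOX core. Across 35116 RefSeq promoter windows of the same length, with a median of 58.0% G and C, 42.6% held a GC box, 24.6% a SOX core, 9.17% a GATA site and 2.98% a forkhead site. A match of letters is a description of the window. Promoter entries were found for 7 of the 9 genes. TP63 is transcribed from several starts, and the deposited counts sum over them, so the forms of p63 with and without the N-terminal transactivation domain are not told apart.

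The libraries held 21.2 to 36.1 M counted reads (M, mega) in H1703 and H1299 and 63.8 to 91.8 M in CHAGO and CALU, so depth moved with the line; its part in differences between lines was not tested. Levels are given in CPM, which are read counts scaled to a common library size, after TMM scaling, and 3 reads, taken as the limit of detection, correspond to 0.0346 to 0.0450 CPM in CHAGO and CALU and to 0.0780 to 0.135 CPM in H1703 and H1299. PRKCI stood at 58.1, 25.8, 23.2 and 41.5 CPM in the knockdown TICs of H1703, H1299, CHAGO and CALU, against 342, 199, 608 and 237 CPM in the TICs of the same lines. It was lower in 4 of 4 lines (log2 fold change −3.15, SE 0.374, edgeR adjusted p = 0.0489), a narrow call that 7 of 13 alternative settings did not make. PRKCI did not differ detectably among the lines (edgeR adjusted p = 0.394). Of 12 leukocyte markers, 5 had no read and the summed level was 0 to 4.15 CPM per library. Of 10 endothelial markers 2 had no read, and their sum reached 51.0 CPM. Fibroblast markers summed to between 0.494 and 3110 CPM, the high end being PDGFRA in H1703 (2550, 3080 and 2610 CPM in knockdown TICs, TICs and parental cells), with COL1A1 high in CALU (301, 1340 and 548 CPM in the same order). Epithelial markers set the lines apart: KRT8, a keratin of simple epithelium, had 0, 0 and 0.0364 CPM in the knockdown TICs, TICs and parental cells of H1703, against 81.7, 106 and 51.1 CPM in CHAGO.

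In edgeR, every lineage factor with reads differed among the lines and none passed the test between states, while DESeq2 called TP63 in TICs against parental cells. In a test of differences among the 4 lines (edgeR quasi-likelihood F test with a term for state, Benjamini-Hochberg adjustment over 14008 genes), all 8 tested members passed an adjusted p of 0.05, against 45.4% of all genes tested. The low-count filter asked for about 0.2 CPM in 4 libraries, and some members lay under that level in a whole line. These were TP63 in H1299, NKX2-1 and FOXA2 in H1703 and H1299, SOX2 and FOXA1 in CALU, and GATA6 in CHAGO. They entered the test through the other lines, so part of their difference between lines was built in. The count of 8, and their calls below that involve such a line, are a description. KLF5 had the smallest adjusted p of the members (0.000346), followed by TP63 (0.00137), GATA6 (0.00272), NKX2-1 (0.00289), FOXA1 (0.012), SOX2 (0.013), FOXA2 (0.0137) and SOX9 (0.0217), all from edgeR. With 1 state left out, which leaves 8 libraries, some of these edgeR calls were lost. SOX2 and FOXA1 did not pass without the TICs (adjusted p = 0.106 and 0.107) or without the knockdown TICs (0.075 and 0.106). SOX9 did not pass without the parental cells (0.0652) or the knockdown TICs (0.0899), and GATA6 did not pass without the TICs (0.0636). The share of the variation in log2 CPM that lay between lines had a median of 87.9% over the 8 members and 63.5% over all genes tested, and the share between states had a median of 3.37% over the members and 8.4% over all genes. Between lines the share ran up to 93.6% for KLF5 and 93.2% for NKX2-1 and was lowest for SOX9, at 80.3%. For the members under the cutoff in a whole line, the filter favored a high share between lines, so these shares are a description too. In these bulk libraries fewer expressing cells and less RNA per cell cannot be told apart.

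**Figure D1:**
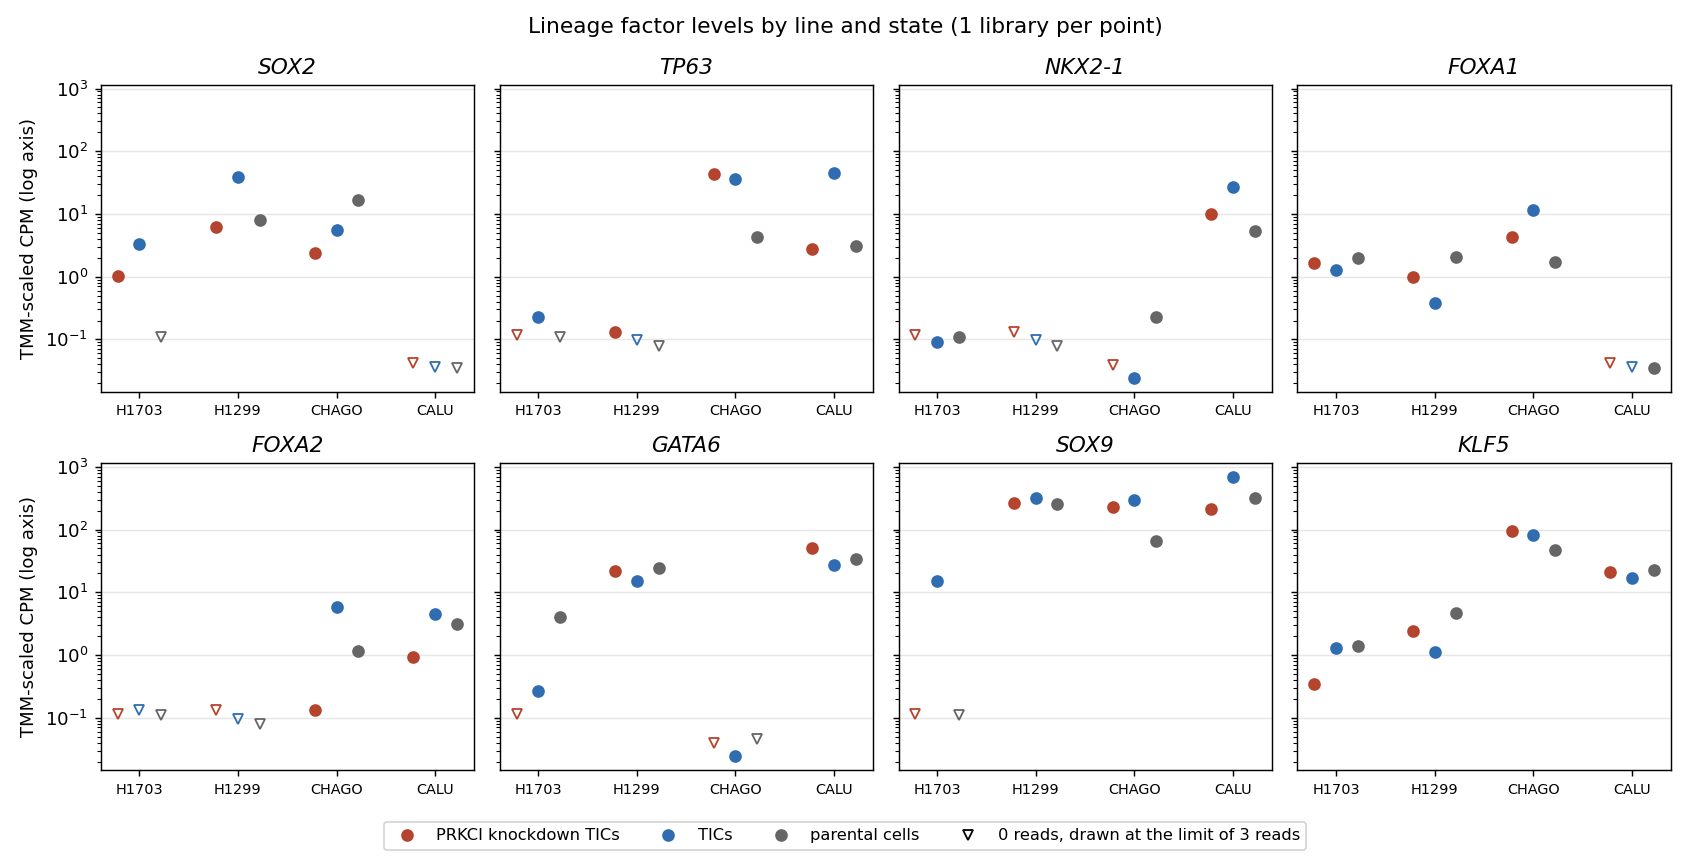
TMM-scaled CPM (log axis) of the 8 lineage factors with reads, by line, with 1 point per library; PRKCI knockdown TICs, TICs and parental cells run left to right, and open triangles are libraries with 0 reads drawn at the limit of 3 reads. SOX2 had no reads in CALU, and TP63 reached 43.9 CPM in CHAGO and 45.2 CPM in CALU with at most 0.225 CPM in H1703 and H1299.

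**Figure D2:**
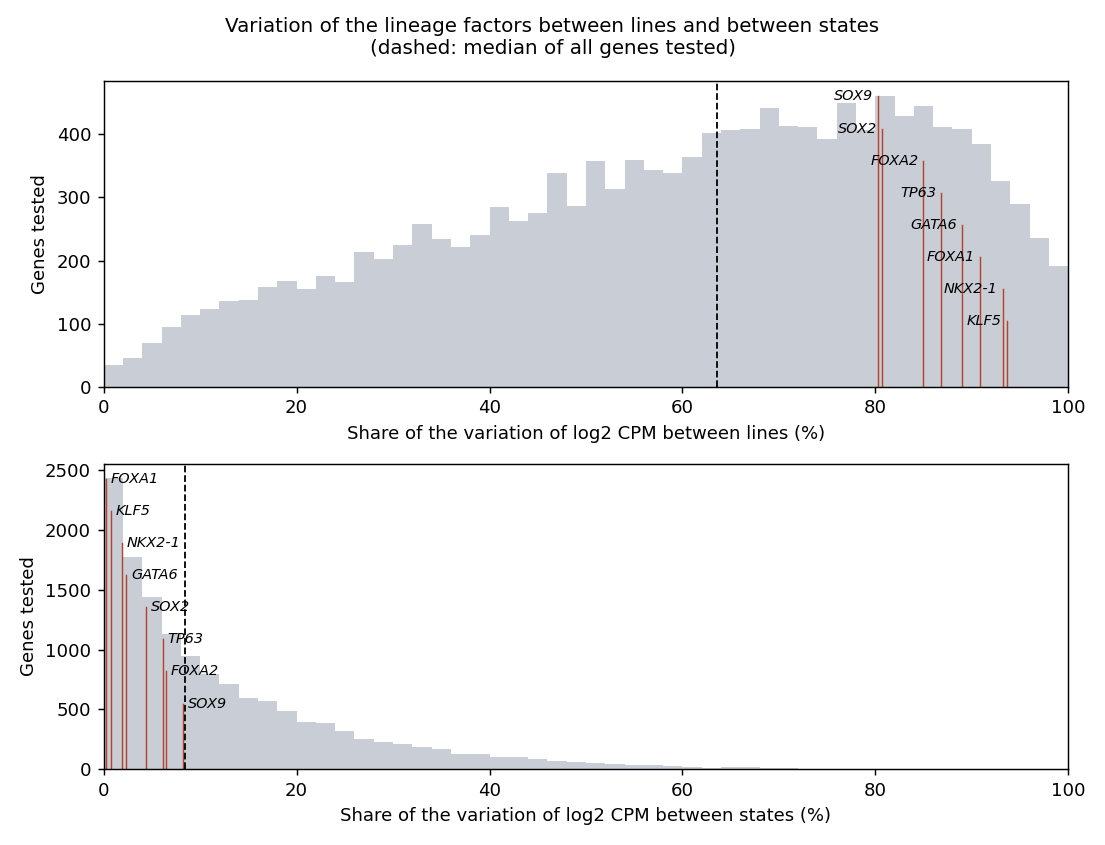
Histograms over all tested genes of the share (%) of the variation of log2 CPM that lies between lines (upper panel) and between states (lower panel), with the 8 lineage factors as red lines and the median of all genes dashed. The 8 factors lie between 80.3% and 93.6% for lines, right of the median of 63.5%, and their shares for states run up to 8.21% for SOX9, under the median of 8.4%.

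SOX2 was expressed in H1299, CHAGO and H1703 and not detected in CALU. It had 6.09, 38.8 and 8.09 CPM in the knockdown TICs, TICs and parental cells of H1299, and 2.35, 5.57 and 17 CPM in those of CHAGO. In H1703 the values were 1.04 CPM in knockdown TICs, 3.38 CPM in TICs and 0 reads in parental cells. All 3 CALU libraries had 0 reads, which allows at most 0.0423 CPM in any of them. The means were 17.7 ± 18.3 CPM in H1299, 8.32 ± 7.71 CPM in CHAGO and 1.47 ± 1.73 CPM in H1703 (SD, n = 3 each). Each of these 3 lines differed from CALU (edgeR adjusted p = 0.0106, 0.00907 and 0.0194 for H1299, CHAGO and H1703), while none of the 3 pairs among them passed (0.839 for H1299 against CHAGO, 0.160 for H1703 against H1299 and 0.243 for H1703 against CHAGO). These pair calls stand against a background of 16% of all genes called in H1299 against CALU, 23.3% in CHAGO against CALU and 28.3% in H1703 against CALU. SOX2OT, a long noncoding gene whose intron holds SOX2, had at most 22 reads in any library, in the TICs of H1299.

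TP63 showed a different split, with reads in CHAGO and CALU. CHAGO had 43.9, 36.2 and 4.26 CPM in knockdown TICs, TICs and parental cells, and CALU had 2.73, 45.2 and 3.05 CPM. H1703 had 0, 5 and 0 reads in the same states and H1299 had 3, 0 and 0, so no library of these lines passed 0.225 CPM. The mean was 28.1 ± 21 CPM in CHAGO and 17 ± 24.4 CPM in CALU, against 0.0750 ± 0.130 CPM in H1703 and 0.0441 ± 0.0764 CPM in H1299 (SD, n = 3 each). CHAGO and CALU did not differ detectably from each other (log2 fold change 1.05, SE 1.15, edgeR adjusted p = 0.550), nor did H1703 and H1299 (adjusted p = 0.918). The 4 pairs across that split passed, with edgeR adjusted p between 0.00293 and 0.00841. Reads in CHAGO and CALU carried TP63 past the low-count filter, so these 4 calls are a description. CHAGO was thus the line with both SOX2 and TP63 reads in each of its 3 states.

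KLF5 had reads in all 12 libraries, over a wide range. CHAGO had 96.5, 81.3 and 46.5 CPM in knockdown TICs, TICs and parental cells, and CALU had 20.9, 16.9 and 22.6 CPM. H1299 had 2.38, 1.13 and 4.73 CPM, and H1703 had 0.347, 1.31 and 1.38 CPM. The 3 values of CHAGO lay above all others, those of CALU came next, and the ranges of H1299 and H1703 overlapped. CHAGO averaged 74.8 ± 25.6 CPM, CALU 20.1 ± 2.94 CPM, H1299 2.75 ± 1.83 CPM and H1703 1.01 ± 0.576 CPM (SD, n = 3 each). CHAGO exceeded CALU by 1.96 on the log2 scale (SE 0.612, edgeR adjusted p = 0.0425), H1703 was below CHAGO by a log2 fold change of −6.31 (SE 0.754, adjusted p = 0.000373), and only the lowest neighbours, H1703 and H1299, did not pass of the 6 pairs (−1.39, SE 0.637, adjusted p = 0.162).

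NKX2-1, the lung and thyroid factor, had nearly all of its reads in CALU. CALU had 9.84, 26.7 and 5.38 CPM in knockdown TICs, TICs and parental cells, a mean of 14.0 ± 11.2 CPM (SD, n = 3). H1299 had 0 reads in its 3 libraries, H1703 had 0, 2 and 3 reads, and CHAGO had 0, 2 and 15 reads, or at most 0.225 CPM. CALU was above each other line (edgeR adjusted p = 0.00902 against H1299, 0.0111 against H1703 and 0.0134 against CHAGO), and the 3 pairs among the other lines did not pass. NKX2-1 entered the test mainly through its reads in CALU, so the calls of CALU are a description. An antisense gene, NKX2-1-AS1, overlaps exons of NKX2-1 and is not among the rows of the table. Whether the counting used strand is not given in the sources used here, so the reads of both cannot be told apart.

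The FOXA paralogs, pioneer factors that open chromatin of endodermal genes, were split differently from each other. FOXA1 had 4.32, 11.5 and 1.70 CPM in the knockdown TICs, TICs and parental cells of CHAGO, 1.66, 1.26 and 2.0 CPM in H1703 and 0.971, 0.387 and 2.08 CPM in H1299. It was at 0, 0 and 3 reads in CALU. CALU was below each other line (edgeR adjusted p = 0.00527 against CHAGO, 0.00945 against H1703 and 0.0202 against H1299), and no pair among the other 3 lines passed. FOXA2 had 0.132, 5.88 and 1.17 CPM in the knockdown TICs, TICs and parental cells of CHAGO and 0.944, 4.50 and 3.13 CPM in those of CALU, and its count was 0 in all 6 libraries from H1703 and H1299. CHAGO did not differ detectably from CALU (log2 fold change −1.19, SE 1.29, edgeR adjusted p = 0.555), and the 4 pairs across that split passed, with adjusted p between 0.0183 and 0.0289. FOXA2 entered the test through its reads in CHAGO and CALU, so these 4 calls are a description. CALU therefore had FOXA2 with FOXA1 at or under 3 reads, H1703 and H1299 had FOXA1 with no FOXA2 read, and CHAGO had both.

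GATA6, a zinc-finger factor of endoderm and of distal lung epithelium, was high in CALU and H1299. CALU had 51.7, 27.5 and 33.6 CPM in knockdown TICs, TICs and parental cells, and H1299 had 21.5, 14.9 and 24.4 CPM. H1703 had 0 reads, 0.270 CPM and 4.07 CPM in the same states, and CHAGO had 0, 2 and 0 reads. The mean was 37.6 ± 12.6 CPM in CALU and 20.2 ± 4.86 CPM in H1299 (SD, n = 3 each), which did not differ beyond their spread (H1299 against CALU, log2 fold change −1.01, SE 1.16, edgeR adjusted p = 0.605). H1703 was below CALU (−5.59, SE 1.51, adjusted p = 0.021), just missed the threshold against H1299 (−4.58, SE 1.43, adjusted p = 0.0547) and was above CHAGO (adjusted p = 0.0268). GATA6-AS1, an antisense gene that overlaps its exons, is likewise not among the rows.

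SOX9 had the highest mean level per kilobase of the members in CALU, H1299 and CHAGO, and in H1703 its mean rested on 1 library. CALU had 212, 684 and 315 CPM in knockdown TICs, TICs and parental cells, H1299 had 263, 315 and 259 CPM, and CHAGO had 228, 291 and 66.3 CPM. In H1703 it had 15.0 CPM in TICs, from 334 reads, and 0 reads in both the knockdown TICs and the parental cells. The ranges of CALU, H1299 and CHAGO overlapped, and no pair among them passed (edgeR adjusted p = 0.584 for CHAGO against CALU, 0.927 for H1299 against CALU and 0.669 for H1299 against CHAGO). H1703 was below each of them, with adjusted p = 0.00794, 0.0154 and 0.0138 against CALU, H1299 and CHAGO. The neuroendocrine factor NEUROD1 had 0 reads in all 12 libraries, which allows at most 0.135 CPM in any of them.

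Over the 6 pairs of lines, 29 of 48 member tests passed in edgeR. Of the 29, TP63 gave 4, NKX2-1 gave 3, FOXA2 gave 4, SOX2 gave 3, FOXA1 gave 3 and GATA6 gave 4. These genes lay under the filter's cutoff in at least 1 whole line, so the counts are a description. Nothing is read from them against the shares of all genes given beside them. The counts were 1 of 8 in H1703 against H1299 (16.7% of all genes), 5 of 8 in H1703 against CHAGO (27.3%), 8 of 8 in H1703 against CALU (28.3%), 4 of 8 in H1299 against CHAGO (23.2%), 6 of 8 in H1299 against CALU (16%) and 5 of 8 in CHAGO against CALU (23.3%). In H1703 against H1299 the 1 call was SOX9 (log2 fold change −7.38, SE 1.64, edgeR adjusted p = 0.0154). Per kilobase of exon (GENCODE v29), the mean level in H1299 ran from SOX9 (70.9 CPM per kb) through SOX2 (7.03), GATA6 (5.13) and KLF5 (0.733) to FOXA1 (0.401). In CHAGO the order per kilobase was SOX9 (49.6 CPM per kb), KLF5 (19.9), TP63 (4.31), SOX2 (3.31), FOXA1 (2.04) and FOXA2 (0.92), and in CALU it was SOX9 (103), GATA6 (9.53), KLF5 (5.36), NKX2-1 (4.50), TP63 (2.60) and FOXA2 (1.10). In H1703 no member had a mean above 1.27 CPM per kb, the value of SOX9, which came from its TIC library alone (SD 2.21). The SD over the 3 states of a line, such as 7.30 CPM per kb for SOX2 in H1299 and 3.74 for TP63 in CALU, exceeded the gap between many neighbours in these orders.

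The comparison of PRKCI knockdown TICs with TICs asked which factors respond to loss of the kinase. No member passed in edgeR (0 of 8, against 0.0143% of all genes, which is 2 genes), and 0 of 8 had an unadjusted p under 0.05, against 4.28% of all genes. DESeq2 and limma voom called 0 members as well, against 0.0785% and 0.107% of all genes, with 0 and 2 at an unadjusted p under 0.05. The median log2 fold change was −1.51 over the 8 members and −0.01 over all genes. Of the members 2 lay above 0 and 6 below, where 49.1% of all genes lay above 0. The members were not tested as a set. Fitted values were −1.95 for SOX2 (SE 1.38), −2.08 for SOX9 (SE 1.23), −3.63 for FOXA2 (SE 1.69), −1.90 for NKX2-1 (SE 1.41) and −1.12 for TP63 (SE 1.22), with edgeR adjusted p of 0.980 or 0.981 for each.

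Within lines, with 1 library on each side and intervals that cover counting error only, SOX2 was lower after knockdown in each of the 3 lines with reads. The knockdown TICs had 27 reads against 75 in the TICs of H1703 (3.24-fold lower), 138 against 1202 in H1299 (6.37-fold lower) and 178 against 455 in CHAGO (2.36-fold lower). SOX9 was lower in 4 of 4 lines: at least 130-fold in H1703, where no read remained against 334 in TICs, 3.23-fold in CALU, 1.27-fold in CHAGO and 1.20-fold in H1299. Without H1703 the fitted log2 fold change of SOX9 was −0.71. Thus the direction was shared by the lines with reads for these genes, and the sizes ranged widely between lines.

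TP63 had unlike values after knockdown in the lines with reads, a difference that was not tested. In CALU the knockdown TICs had 194 reads against 3741 in TICs, 16.5-fold lower, and in CHAGO they had 3325 against 2960, a ratio of 1.21 (95% interval 1.16 to 1.28). In H1703 there were 0 reads in knockdown TICs against 5 in TICs, at least 1.94-fold lower. Without CALU the fitted log2 fold change was −0.04. FOXA2 was lower in both lines with reads, with 10 reads in knockdown TICs against 481 in TICs of CHAGO (44.5-fold lower) and 67 against 373 in CALU (4.77-fold lower). NKX2-1 was 2.71-fold lower in CALU, from 698 reads in knockdown TICs against 2212 in TICs. GATA6 was higher after knockdown in both lines with over 6 reads, with ratios of 1.88 in CALU (interval 1.79 to 1.98) and 1.44 in H1299 (1.27 to 1.64), while in H1703 it had 0 reads in knockdown TICs against 6 in TICs. KLF5 had ratios of 2.11 in H1299, 1.24 in CALU, 1.19 in CHAGO and 0.266 in H1703, the last from 9 reads in knockdown TICs against 29 in TICs. FOXA1 was 2.66-fold lower in CHAGO, with a ratio of 2.51 in H1299 (interval 1.19 to 5.56) and of 1.32 in H1703, where the interval of 0.800 to 2.20 includes 1.

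**Figure D3:**
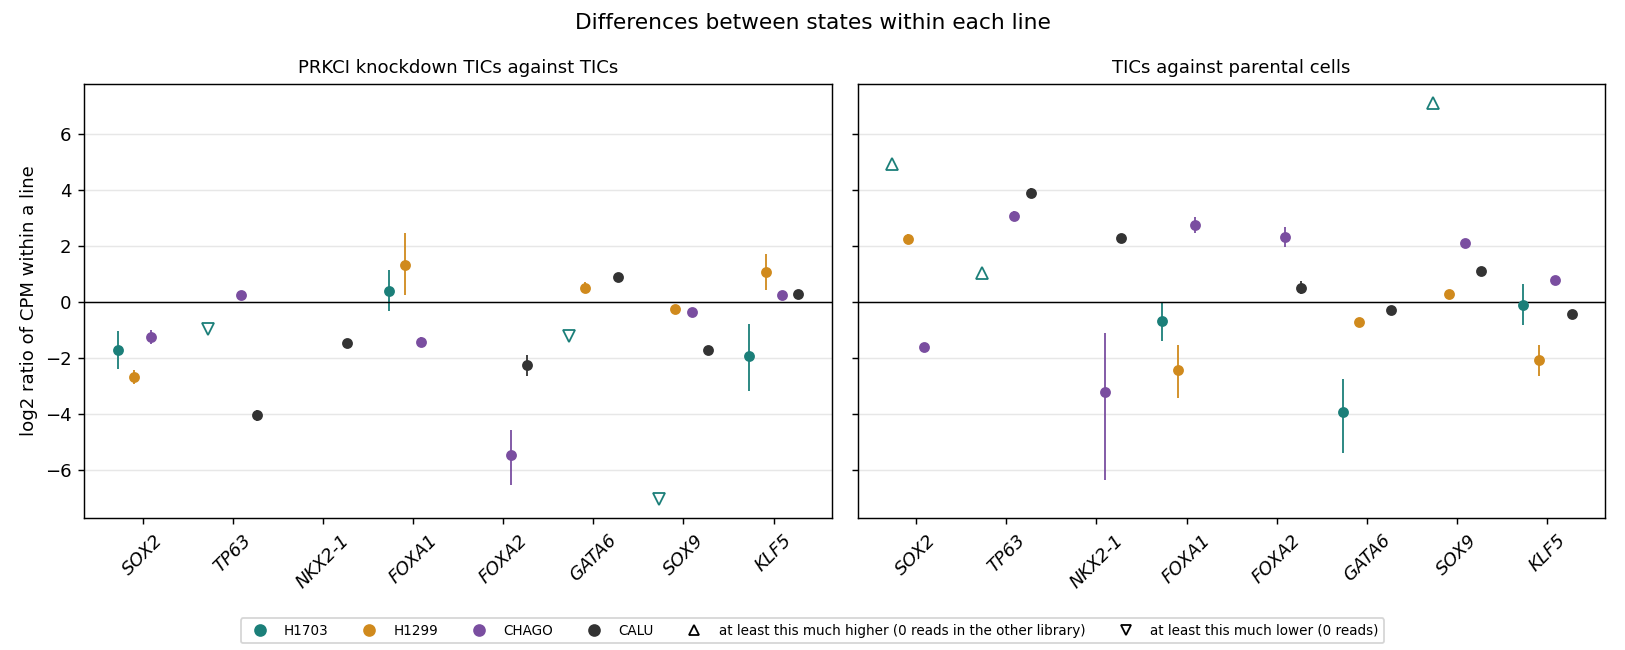
Log2 ratio of CPM within each line for PRKCI knockdown TICs against TICs (left) and TICs against parental cells (right), 1 library on each side; bars are 95% intervals for counting error only, and triangles are bounds where 1 of the libraries had 0 reads. SOX2 lies below 0 after knockdown in H1703, H1299 and CHAGO, SOX9 lies below 0 after knockdown and above 0 in TICs in all 4 lines, and TP63 is near 0 in CHAGO but −4.05 in CALU after knockdown.

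TICs were set against parental cells to ask which factors differ with the tumor-initiating state. The TIC libraries were those of the knockdown comparison, so a high or low TIC value moves both and their directions are not independent. Again 0 of 8 members passed in edgeR, against 0.0286% of all genes (4 genes), and 1 had an unadjusted p under 0.05, against 11.8% of all genes. That gene was TP63, with a log2 fold change of 3.66 (SE 1.20, edgeR adjusted p = 0.283), the largest of the 8. DESeq2 called TP63 (log2 fold change 3.74, adjusted p = 0.0265), where 3.65% of all genes passed, and limma voom did not (adjusted p = 0.106), where 1.21% passed. SOX9 had a log2 fold change of 2.45 (SE 1.23, adjusted p = 0.477) and SOX2 1.26 (SE 1.59, adjusted p = 0.819). Over the 8 members the median was 0.41, with 4 above 0, and over all genes it was −0.02, with 48.7% above 0.

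TP63 was higher in TICs in each of the 3 lines with reads in TICs. TICs had 3741 reads against 264 in parental cells of CALU, a ratio of 14.8 (interval 13.1 to 16.8), and 2960 against 284 in CHAGO, a ratio of 8.5 (7.52 to 9.63). In H1703 the 5 reads in TICs against 0 in parental cells gave at least 2.06-fold, and H1299 had none in either. SOX9 was higher in TICs in 4 of 4 lines, with ratios of 4.38 in CHAGO, 2.17 in CALU and 1.22 in H1299 and at least 138-fold in H1703, and without H1703 the fitted log2 fold change was 1.10. SOX2 had no common direction: the ratio of TICs to parental cells was 4.80 in H1299 (interval 4.23 to 5.45) and at least 30.9 in H1703, and TICs were 3.06-fold lower in CHAGO. Without CHAGO its fitted log2 fold change was 3.34, and without H1703 it was 0.18.

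Of the endodermal factors, NKX2-1 was higher in the TICs of CALU, at 4.96 times the parental level (interval 4.49 to 5.49), while in CHAGO its reads numbered 2 in TICs and 15 in parental cells (ratio 0.109, interval 0.0121 to 0.467). FOXA2 had ratios of 5.03 in CHAGO and 1.44 in CALU. FOXA1 was 6.79 times the parental level in the TICs of CHAGO and 5.37-fold lower in those of H1299. GATA6 was lower in the TICs of the 3 lines with reads, 15.1-fold in H1703 (6 reads against 112), 1.64-fold in H1299 and 1.23-fold in CALU, with a fitted log2 fold change of −1.51 (SE 1.29, edgeR adjusted p = 0.707), or −0.16 without H1703. KLF5 was 1.75 times the parental level in the TICs of CHAGO, 4.19-fold lower in those of H1299 and 1.34-fold lower in those of CALU, and its ratio of 0.945 in H1703 had an interval that includes 1.

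PRKCI knockdown TICs were also set against parental cells, a comparison that shares libraries with both others. It gave 0 of 8 members in edgeR, against 0.0357% of all genes (5 genes), and 0 with an unadjusted p under 0.05, against 10.7% of all genes. DESeq2 and limma voom called 0 members here too, against 2.86% and 1.09% of all genes, with 1 and 0 at an unadjusted p under 0.05. TP63 had a log2 fold change of 2.54 (SE 1.27, edgeR adjusted p = 0.508). It stood at 43.9 CPM in knockdown TICs against 4.26 CPM in parental cells of CHAGO, a ratio of 10.3, and at 2.73 against 3.05 CPM in CALU, where the interval of the ratio (0.741 to 1.08) includes 1. SOX2 was 7.23-fold lower in knockdown TICs than in parental cells of CHAGO and 1.33-fold lower in H1299, but at least 9.55-fold higher in H1703 (27 reads against 0). GATA6 was at least 35.2-fold lower in H1703 and 1.13-fold lower in H1299, and stood at 1.54 times the parental level in CALU. The median log2 fold change was −0.82 over the members and −0.05 over all genes.

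Genes that follow these lineages were read from lists of squamous and basal, epithelial, alveolar and club, gastric and hepatic, neuroendocrine, and SOX9 progenitor and cartilage genes, and of other lineage transcription factors. The low-count filter asked for about 0.2 CPM in 4 libraries. Genes with few or no reads in some lines, such as CLDN7, TRIM29, TFAP2C and LIN28B, entered through the others. Part of their difference among lines was thus built in, so the counts and p-values among lines below are a description. The epithelial list, some of it KLF5 targets, had 18 of 24 genes tested, and all 18 differed among the lines, against 45.4% of all genes tested. Of these, 14 had their highest line mean in CHAGO, as did 28.8% of all genes that differed. CLDN7, a tight-junction claudin, had 39.6, 54.8 and 39.4 CPM in the knockdown TICs, TICs and parental cells of CHAGO, at most 3.23 CPM in CALU and no read in the other 2 lines (edgeR adjusted p = 0.000444). KRT18 ran to 95.3, 108 and 68.3 CPM in CHAGO, with at most 1.42 CPM in H1703 (adjusted p = 0.000393). CCND1, the cyclin D1 gene, was highest in CALU, at 2990, 2850 and 2840 CPM (adjusted p = 4.40e-05).

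Of 28 squamous and basal genes, many of them targets of p63 or SOX2, 16 were tested and 11 (68.8%) differed among the lines, against 45.4% of all genes, and 8 of the 11 were highest in CHAGO, against 28.8% of all genes that differed. TRIM29 had 85.3, 121 and 178 CPM in the knockdown TICs, TICs and parental cells of CHAGO and at most 0.479 CPM in the other lines (edgeR adjusted p = 0.00267). Between TICs and parental cells 0 genes of the list passed in edgeR, against 0.0286% of all genes. An unadjusted p under 0.05 was reached by 2 of the 16, against 11.8% of all genes. DESeq2 called KRT15, where 3.65% of all genes passed, and limma voom called 0, where 1.21% passed. The smallest p was that of the basal keratin gene KRT15, with a log2 fold change of 2.70 (SE 0.779, edgeR adjusted p = 0.240).

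Alveolar and club genes, many of them NKX2-1 targets, were sparse: 9 of 22 were tested. Of these, 5 (55.6%) differed among the lines, not far from the 45.4% of all genes. Of the 5, 3 were highest in CHAGO and 1 in CALU, against 28.8% in each line of all genes that differed. MUC1 had 49.0, 68.5 and 42.5 CPM in the knockdown TICs, TICs and parental cells of CHAGO and at most 1.56 CPM elsewhere (edgeR adjusted p = 0.00219). The neuroendocrine list gave 8 calls among 11 tested genes (72.7%), against 45.4% of all genes, and NEUROD1 had no reads. Of the 8, 5 were highest in H1299, 2 in CALU and 1 in H1703. Of all genes that differed, these lines held 19.4%, 28.8% and 23.0%. INA, a neuronal intermediate filament, had 446, 378 and 599 CPM in H1703 and 0 reads in CALU (adjusted p = 1.92e-05), and the secretory granule gene SCG5 had 437, 226 and 77.1 CPM in CALU (adjusted p = 0.000173). The SOX9 progenitor and cartilage list also gave 8 calls among 11 tested genes (72.7%, against the same 45.4%). Of these 8, 5 were highest in CALU, 2 in H1299 and 1 in CHAGO, against 28.8%, 19.4% and 28.8% of all genes that differed. The list was led by LIN28B, an RNA-binding protein of progenitors, at 177, 160 and 291 CPM in H1299 and at most 1.44 CPM elsewhere (adjusted p = 0.000399). Of 26 gastric and hepatic genes 4 were tested and 2 differed, SERPINA1 and CPS1.

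Of the other lineage transcription factors, 47 of 79 were tested and 27 (57.4%) differed among the lines, not far from the 45.4% of all genes, and 16 of the 27 were highest in CHAGO, against 28.8% of all genes that differed. TFAP2C had 81.9, 73.8 and 94.7 CPM in the knockdown TICs, TICs and parental cells of CHAGO and at most 10.5 CPM elsewhere (edgeR adjusted p = 6.83e-05). KLF4, a paralog of KLF5, was likewise highest in CHAGO, at 41.3, 43.7 and 35.7 CPM (adjusted p = 0.000449), and RUNX2 was highest in CALU, at 156, 127 and 167 CPM (adjusted p = 9.27e-05). Between states, edgeR called 0 of the 111 tested genes of these 7 lists in each of the 3 comparisons. At an unadjusted p under 0.05 there were 3 in knockdown TICs against TICs, 10 in TICs against parental cells and 12 in knockdown TICs against parental cells, where 4.28%, 11.8% and 10.7% of all genes lay. DESeq2 called 0, 5 and 4 of the 111 genes, against 0.0785%, 3.65% and 2.86% of all genes, and limma voom 0, 2 and 3, against 0.107%, 1.21% and 1.09%, in the same order.

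**Figure D4:**
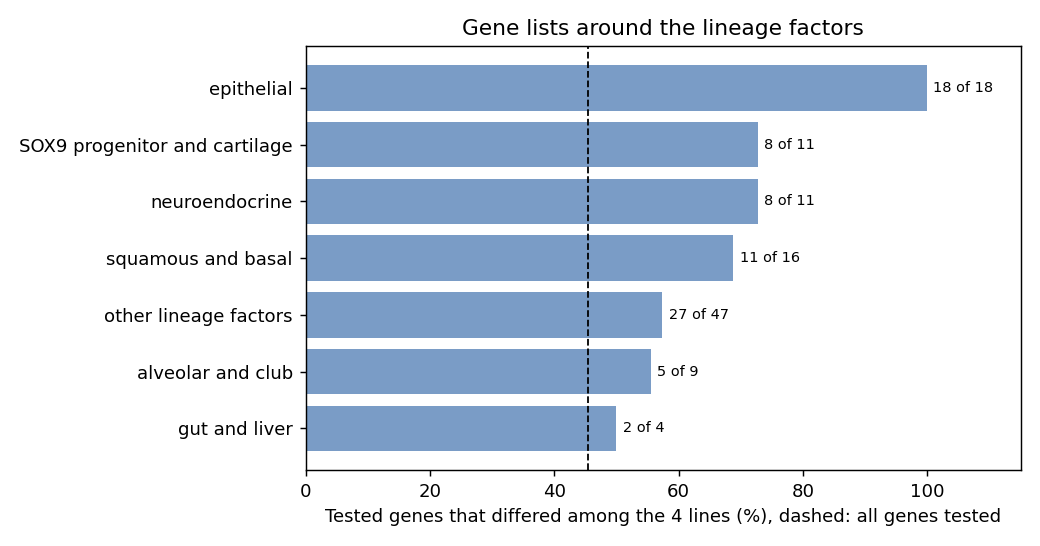
Share (%) of the tested genes of each list that differed among the 4 lines at an edgeR adjusted p of 0.05, with the counts beside the bars and the share of all genes tested, 45.4%, dashed. Epithelial genes stand at 18 of 18, squamous and basal genes at 11 of 16 and other lineage factors at 27 of 47. The shares are a description, as some genes passed the low-count filter through some of the lines only.

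As a description over the 12 libraries, which share lines, the genes most like each member were taken from the 8748 genes whose log2 CPM averaged 2 or more, by Pearson correlation of log2 CPM. For SOX2 they were PSPC1 (r = 0.931), WDR59 (0.910) and ZNF529 (0.904), and for TP63 TOMM20 (0.961), VAMP4 (0.958) and SPINT2 (0.942). GATA6 was followed most closely by QKI (0.970), ZHX3 (0.965) and ZEB2 (0.964), SOX9 by NOVA1 (0.974) and F2RL1 (0.969), and KLF5 by NCKAP1 (0.967), SH3YL1 (0.967) and PARD6B (0.964). NKX2-1 was most like STT3B (0.951), FOXA1 most like TAF2 (0.963) and FOXA2 most like MDH1 (0.930). After the mean of each line was removed, SOX2 was most like CLU (0.95), HEATR5B (0.937) and PEG10 (0.928), and TP63 most like FKBP9L (0.943), VPS54 (0.939) and BRWD3 (0.934). Among the members themselves, over the same 12 libraries, TP63 and KLF5 had r = 0.893, TP63 and FOXA2 had r = 0.842, NKX2-1 and FOXA1 had r = −0.865, and SOX2 and TP63 had r = −0.223.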

How the data were processed

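Per the labels' protocols, RNA came from Qiagen RNeasy extraction and NuGEN reagents served for the libraries. CASAVA 1.4, TopHat 1.4 and HTSeq 0.5.3p3 with build hg19 are named in the submitters' processing notes, without their roles. The deposited count table holds raw read counts per gene, 1 column per library, per the file headers. The other deposited table gives mode-normalized values, a score that equals the count times 1 factor per library, and was used in an alternative only.

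Genes were filtered with edgeR 4.0.16 (filterByExpr, 3 groups) in R 4.3.3, which left 14008 of 22506, scaled with TMM and fitted by the quasi-likelihood model with terms for state and line, 6 residual degrees of freedom, two-sided, Benjamini-Hochberg adjusted over all tested genes at 0.05. Log2 CPM used a prior count of 2. The SE printed with an edgeR log2 fold change is the absolute change divided by the square root of its F statistic, an approximation. The line names in the labels pair the libraries: with state means subtracted, libraries of a line correlated at 0.553 to 0.760 across genes, and those of different lines at −0.414 to −0.0601. One letter separates the CALU knockdown column's name from its title. Intervals (95%, exact) and limits (3 reads) cover counting error only. A ratio given as at least some value sets the library with 0 reads to 3 reads and takes the other count as it is. It is therefore not a 95% bound. The tests were run on simulated counts with a smaller spread than these data, whose common dispersion was 0.489. Genes with low counts were not changed in them, so that run does not show how well changes in the members are found. Members and gene lists were chosen with earlier results of these data known. Named were the members, PRKCI, up to 4 genes of smallest p per list and comparison, and the 3 genes most like each member, and not every gene so taken is printed, some being not reported here. COL1A1, PDGFRA and SOX2OT were named as marker or overlapping genes. Alternatives were other scalings and filters, no line term in tests of states, and no state term in tests among lines. Others were each line or state left out, only the compared states, DESeq2 1.42.0, limma 3.58.1 voom, and the mode-normalized values.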

Additional observations from a re-analysis of the deposited data

Results flagged for a closer look

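In groups of 4 libraries, 1 per line, a library is set apart when its gap to the nearest other library exceeds Dixon's 95% critical share of the range of log2 CPM. In all, 24 groups were examined. Chance gives about 1 in 20, a rate that does not hold for counts at 0 reads or for genes that differ among lines. NKX2-1 in the knockdown TICs of CALU stood apart (gap of 1.0 of the range), with 9.84 CPM against 0 reads in the other 3 lines. With those 3 tied at 0 reads the gap could take no other value, so it is a description. SOX9 in the knockdown TICs of H1703 stood apart (0.975), with 0 reads against 212 to 263 CPM. FOXA1 in the parental cells of CALU stood apart (0.941), with 3 reads, or 0.0346 CPM, against 1.70 to 2.08 CPM.

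Some differences between states ran in opposite directions in 2 lines, by at least 2-fold each way and with at least 20 reads in both libraries together. With 1 library per line and state, the difference between lines was not tested. For TICs against parental cells, the log2 ratio of SOX2 was 2.26 in H1299 and −1.61 in CHAGO, 3.88 apart. For the same states the log2 ratio of FOXA1 was 2.76 in CHAGO and −2.43 in H1299, 5.19 apart. For knockdown TICs against TICs, FOXA1 had 1.33 in H1299 and −1.41 in CHAGO, 2.74 apart, and KLF5 had 1.08 in H1299 and −1.91 in H1703, 2.99 apart.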

How the results depend on the processing

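Over all alternatives run, 0 members were called in either comparison with knockdown TICs. In TICs against parental cells 0 were called except with DESeq2, which called 1, TP63. Among the lines 8 members were called in 7 of the alternatives run and 7 of 7 tested with a filter of 1 CPM in 4 libraries, which drops NKX2-1. With 1 state left out the count lay between 3 (of 6 tested, without TICs) and 5 (of 6, without parental cells), with 18.1% and 39.4% of all genes called, and it was 4 of 7 without knockdown TICs (19.2%). The pair calls then lay between 10 and 21 and the genes called between 2342 and 5148. Those fits rest on 8 libraries, and fewer genes were tested. KLF5 and TP63 were called among the lines in each alternative, while SOX2, FOXA1, SOX9 and GATA6 each lost the call with at least 1 state left out.

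The number of all genes called between states was small and moved. In the order TICs against parental cells, knockdown TICs against TICs, and knockdown TICs against parental cells, it was 511, 11 and 400 with DESeq2, 170, 15 and 152 with limma voom, and 43, 1 and 20 from the mode-normalized values. It was 0, 0 and 0 with only the compared states. With each line left out it lay between 0 and 0, 0 and 1, and 0 and 2. The filter of 1 CPM gave 0 in knockdown TICs against TICs and 3 in knockdown TICs against parental cells, and DESeq2 size factors gave 8 for the last. The cause was not tested.

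With no replicate block, the tests of states left out the line term and those among lines left out the state term. The former called 0 genes in each comparison, and the latter called 8 members and 29 pairs. Without the block the log2 fold changes for TICs against parental cells were 2.23 for NKX2-1, 1.18 for FOXA1 and 0.42 for KLF5, each of the other sign than with it. For knockdown TICs against parental cells they were 0.78 for NKX2-1, 0.26 for FOXA1, 0.24 for GATA6 and 0.68 for KLF5, again reversed. The block changed no call of a member.

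Other log2 fold changes of uncalled genes changed sign. For TICs against parental cells these were NKX2-1 (1.90 with limma voom, −0.99 to 1.01 with a line left out), FOXA1 (0.98 with limma voom, 0.047 from mode-normalized values), KLF5 (0.23 with limma voom, −0.76 to 0.055 with a line left out) and PRKCI (−0.21 to 0.33 with a line left out). For knockdown TICs against TICs they were FOXA1 (0.091 with only the compared states, −0.56 to 0.72 with a line left out), GATA6 (−0.30 with only the compared states, −0.20 with DESeq2, −0.25 from mode-normalized values, −0.76 to 0.44 with a line left out and −0.24 without H1299) and KLF5 (−0.010 with library totals, −0.12 from mode-normalized values, −0.20 to 0.46 with a line left out, −0.13 without CHAGO and −0.10 without CALU). For knockdown TICs against parental cells they were SOX2 (0.022 with only the compared states, 0.21 from mode-normalized values, −1.95 to 1.46 with a line left out), NKX2-1 (0.36 with limma voom), FOXA1 (0.42 with limma voom, 0.028 from mode-normalized values), GATA6 (0.11 with limma voom, −2.68 to 0.19 with a line left out), KLF5 (0.48 with limma voom) and SOX9 (−0.22 to 0.81 with a line left out). In each alternative that gave a value, TP63, SOX9 and SOX2 kept their sign in TICs against parental cells and in knockdown TICs against TICs. Those comparisons share the TIC libraries. Depth limits what 0 reads mean in H1703 and H1299, where 3 reads are up to 0.135 CPM.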

Other observations

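Some other lineage factors of the fixed list had small p-values between states without passing in edgeR. PAX6, the eye and neural factor, had 9.22 and 5.49 CPM in the knockdown TICs and TICs of H1299, against 48.4 CPM in its parental cells, and 5.48 and 3.65 CPM in those of CALU, against 20.4 CPM in its parental cells, while CHAGO had 25.1 and 17.7 CPM, against 21.3 CPM. Its log2 fold change for TICs against parental cells was −2.47 (SE 0.668, edgeR adjusted p = 0.225), and DESeq2 called it. GATA3, a factor of luminal and squamous epithelium, had 6.78 and 6.43 CPM in the knockdown TICs and TICs of CHAGO, against 58.9 CPM in its parental cells (−2.97, SE 0.923, edgeR adjusted p = 0.266), and both DESeq2 and limma voom called it. FOXM1, a factor of dividing cells, was lower in the TICs than in the parental cells of H1703 (155 against 356 CPM), H1299 (91.0 against 163 CPM) and CALU (30.0 against 173 CPM), and higher in CHAGO (112 against 82.9 CPM), with an edgeR adjusted p of 0.319. KLF7, a paralog of KLF5, had 30.3, 46.3, 12.2 and 27.4 CPM in the knockdown TICs of H1703, H1299, CHAGO and CALU, against 7.27, 28.8, 2.16 and 9.63 CPM in their parental cells, higher in 4 of 4 lines (log2 fold change 1.65, SE 0.474, edgeR adjusted p = 0.251), and DESeq2 called it.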
